A study of Mus musculus with 8 samples.

Results

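The gene set described here holds 8 genes of the transcriptional network that controls mitochondrial and fatty acid metabolism: the coactivator genes Ppargc1a and Ppargc1b, the nuclear receptor genes Ppara, Esrra, Esrrb and Esrrg, and the transcription factor genes Tfam and Gabpa. They were chosen by name from the 54965 genes in the deposited table of mouse kidney RNA sequencing, and each name matched 1 gene. Of the 8 libraries, 2 came from each of 4 groups: wild type and Utx Pax2-Cre kidneys, each without injury or 3 days after ischemia-reperfusion (I/R), in which the blood flow of the kidney is stopped and restored. Utx Pax2-Cre, called knockout here as in the sample names, is directed at Utx (gene symbol Kdm6a), an X-linked histone demethylase gene, by a Cre recombinase driven by Pax2, a gene of the kidney-forming lineages. Cells outside those lineages keep the gene, and the RNA was taken from kidney tissue with all its cell types. A sham operation is named in the protocol, but the labels of the uninjured samples do not say whether they had one, and strain, age and sex were not stated. Because the labels do not say which animal gave which library, the p-values reflect a spread between libraries within groups that may be technical. That spread was pooled over the 4 groups and moderated with the spread of all tested genes.

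PGC-1 alpha (Ppargc1a) and PGC-1 beta (Ppargc1b) do not bind DNA themselves but are recruited by nuclear receptors and other factors, at whose target genes they raise transcription. Their partners include PPAR alpha (Ppara), a receptor for fatty acids that drives genes of fatty acid oxidation, and the estrogen-related receptors (Esrra, Esrrb and Esrrg), orphan receptors that drive genes of oxidative phosphorylation and the tricarboxylic acid cycle. GABP alpha (Gabpa) is the DNA-binding subunit of an ETS-family factor at nuclear genes of the respiratory chain. TFAM packages mitochondrial DNA and acts in its transcription. Proximal tubule and thick ascending limb cells of the kidney, which reabsorb most filtered salt, are rich in mitochondria.

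Each library held between 16780542 and 18497835 reads in genes. Levels are in FPKM, fragments per kilobase of gene length scaled to a size for each library. The size implied by the deposited FPKM was not the read total. It was 0.857 to 0.905 times the reads in genes in uninjured libraries and 0.990 to 1.07 times them after I/R. Kdm6a had 2.57 and 2.94 FPKM in uninjured wild type and 1.99 and 1.91 FPKM in uninjured knockout. After I/R it had 3.00 and 2.97 FPKM in wild type and 1.59 and 1.83 FPKM in knockout. The knockout libraries were lower in both states, and the difference was called after I/R (log2 difference -0.56 ± 0.10 SE, limma adjusted p = 0.0295) but not without it (-0.35 ± 0.10, adjusted p = 0.431). Which exons were deleted is not stated, and these levels are over the whole gene. The tubule injury gene Havcr1 (KIM-1) rose from 1.07 and 0.75 to 241 and 204 FPKM in wild type and from 1.26 and 1.14 to 90.2 and 89.6 FPKM in knockout.

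The promoter windows of 4 of the genes are shown because their letters differ in which factor motifs they hold. Windows run from 250 bases before to 50 bases after the annotated start, are taken from RefSeq (GRCm38.p6) and are written 5′ to 3′ on the gene's strand. Capitals mark a motif match: CCGGAAGT (the ETS motif bound by GABP) in Tfam, and GCATGCGC (of the type bound by NRF1, nuclear respiratory factor 1, which works with PGC-1 coactivators) in Esrra and, on both strands with overlap, in Ppara.
Ppargc1a, chr5:51567676-51567975 (minus strand): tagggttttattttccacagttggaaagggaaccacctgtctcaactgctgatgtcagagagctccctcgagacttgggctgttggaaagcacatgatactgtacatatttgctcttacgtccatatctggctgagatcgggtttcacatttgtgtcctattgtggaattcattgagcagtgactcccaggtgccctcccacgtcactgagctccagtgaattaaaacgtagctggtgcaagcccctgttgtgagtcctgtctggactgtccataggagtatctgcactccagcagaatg
Ppara, chr15:85735526-85735825 (plus strand): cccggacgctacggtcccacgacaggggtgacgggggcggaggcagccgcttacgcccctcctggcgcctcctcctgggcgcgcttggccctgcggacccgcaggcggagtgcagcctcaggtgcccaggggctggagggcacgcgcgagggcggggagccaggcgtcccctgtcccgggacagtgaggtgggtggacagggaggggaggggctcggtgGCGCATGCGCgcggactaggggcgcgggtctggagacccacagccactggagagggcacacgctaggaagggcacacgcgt
Esrra, chr19:6921759-6922058 (minus strand): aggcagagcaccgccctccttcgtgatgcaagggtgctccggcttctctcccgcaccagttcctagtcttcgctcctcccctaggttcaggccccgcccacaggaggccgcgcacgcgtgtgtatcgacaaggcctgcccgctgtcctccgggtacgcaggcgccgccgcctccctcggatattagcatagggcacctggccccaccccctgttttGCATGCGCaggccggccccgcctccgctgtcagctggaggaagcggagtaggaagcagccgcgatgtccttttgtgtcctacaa
Tfam, chr10:71237995-71238294 (minus strand): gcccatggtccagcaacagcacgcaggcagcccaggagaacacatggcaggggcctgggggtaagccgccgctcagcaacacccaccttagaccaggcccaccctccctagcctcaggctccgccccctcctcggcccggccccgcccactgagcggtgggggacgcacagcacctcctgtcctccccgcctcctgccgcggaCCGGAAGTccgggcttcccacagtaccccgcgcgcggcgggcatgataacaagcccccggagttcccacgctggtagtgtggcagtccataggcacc

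Windows were found for 7 of the 8 genes, and both strands of each were searched for 4 motifs. The estrogen-related receptor element TCAAGGTCA was in 0 of 7 genes, beside 0.466% of the 27025 genes with a window. The PPAR element, 2 copies of AGGTCA with 1 base between them, was in 0 of 7 genes, beside 0.0481% of genes. The ETS motif was in 1 of 7, Tfam, with its first base at position -47 from the start, beside 4.31% of genes. The NRF1-type motif, which was chosen after these letters had been seen, was in 2 of 7, beside 3.05% of genes. It lay at -34 in Esrra and at -31 and -29 in Ppara. These positions count from the RefSeq start. In Tfam and Ppara that start and the matches lie inside the gene spans printed below. A match is a description of letters, and a window without one says nothing of the factor.

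Positions are those of build GRCm38. Ppargc1a (ENSMUSG00000029167) spans 51454250 to 51567726 on the minus strand of chromosome 5, and Ppargc1b (ENSMUSG00000033871) spans 61298136 to 61400431 on the minus strand of chromosome 18. Ppara (ENSMUSG00000022383) spans 85734983 to 85802819 on the plus strand of chromosome 15. Esrra (ENSMUSG00000024955) spans 6910977 to 6921813 on the minus strand of chromosome 19, Esrrb (ENSMUSG00000021255) spans 86361117 to 86521628 on the plus strand of chromosome 12, and Esrrg (ENSMUSG00000026610) spans 187608791 to 188214885 on the plus strand of chromosome 1. Tfam (ENSMUSG00000003923) spans 71225464 to 71238280 on the minus strand of chromosome 10, and Gabpa (ENSMUSG00000008976) spans 84834925 to 84863779 on the plus strand of chromosome 16. Esrra overlaps the 3′ end of Trmt112, and Gabpa overlaps the start of Atp5j, a subunit gene of ATP synthase, each on the other strand. How the counting used strand is not stated, so reads in those overlaps cannot be told apart; Atp5j reached 97.5 FPKM.

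All 8 genes were expressed, and Esrra stood above the rest in every group. In FPKM, which is per length, Esrra had a mean of 86.8 ± 4.8 (SD, n = 2) without injury and 55.5 ± 4.6 with it in wild type. In knockout it had 95.9 ± 2.9 without injury and 71.1 ± 3.0 with it. In wild type, knockout, injured wild type and injured knockout that was 4.25, 6.89, 3.75 and 4.77 times the gene next in order. Ppargc1b was lowest in every group, with means of 3.09, 1.95, 1.64 and 2.39 FPKM from 78 to 214 reads per library, against 301 or more reads for each of the other genes.

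The genes between these extremes lay close together. In wild type the order below Esrra was Ppara, Ppargc1a, Tfam, Esrrg, Esrrb, Gabpa and Ppargc1b, and the libraries of neighbours overlapped for Esrrb and Gabpa. In knockout it was Tfam, Esrrg, Ppargc1a, Ppara, Gabpa, Esrrb and Ppargc1b, with overlap between each pair of neighbours from Tfam to Ppara and between Gabpa and Esrrb. After I/R the order in wild type was Ppara, Tfam, Esrrg, Ppargc1a, Gabpa, Esrrb and Ppargc1b. In knockout after I/R it was Ppara, Ppargc1a, Esrrg, Tfam, Gabpa, Esrrb and Ppargc1b. After I/R the libraries of Esrrg overlapped those of Tfam and of Ppargc1a in both genotypes, while Tfam and Ppargc1a did not overlap each other.

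**Figure D1:**
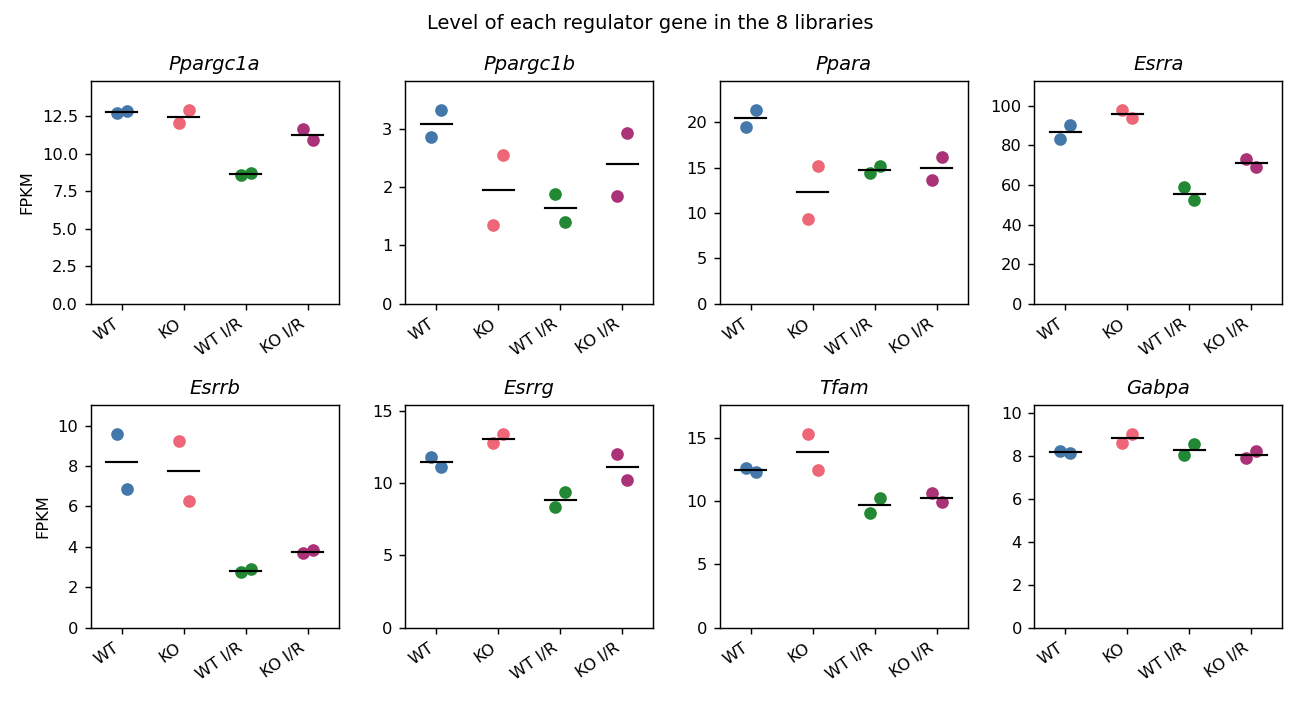
FPKM of each of the 8 genes (1 panel per gene, vertical axes starting at 0), with 1 point per library and a line at each group mean. Esrra had the highest level in all 4 groups. In Esrrb, Esrra, Ppargc1a and Tfam every I/R library lay below every uninjured library.

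In wild type kidneys, 5 of the 8 genes were lower 3 days after I/R: Esrrb, Esrra, Ppargc1a, Esrrg and Tfam. Among all 13304 genes tested, 20.1% were called lower and 17.4% higher. The median log2 difference was -0.48 over the 8 genes and -0.03 over all genes tested. Every I/R library lay below every uninjured library in 7 of the 8 genes, beside 38.5% of all genes.

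Of the coactivators, Ppargc1a had 12.7 and 12.8 FPKM without and 8.59 and 8.71 FPKM after I/R. The replicates differed by little and the groups did not overlap; Ppargc1a fell by 0.51 ± 0.07 on the log2 scale (adjusted p = 0.00165, limma), to 67.8% of its mean. Ppargc1b had 2.85 and 3.32 FPKM without and 1.88 and 1.39 FPKM after I/R. Both I/R libraries were lower, but the difference of -0.64 ± 0.24 was not called (adjusted p = 0.0746).

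Among the receptors Esrrb had the largest log2 difference. It had 9.60 and 6.85 FPKM in the uninjured libraries and 2.77 and 2.88 FPKM after I/R, and although the uninjured libraries were uneven, both lay well above the others. Esrrb fell by 1.25 ± 0.19 (adjusted p = 0.00251), to 34.3% of its mean. Esrra, the receptor with the highest level, had 83.4 and 90.2 FPKM without and 58.8 and 52.3 FPKM after I/R. It fell by 0.64 ± 0.09 (adjusted p = 0.00158). Esrrg went from 11.8 and 11.1 to 8.34 and 9.35 FPKM, a fall of 0.34 ± 0.10 (adjusted p = 0.0313). Ppara had 19.5 and 21.3 FPKM without and 14.4 and 15.2 FPKM after I/R, and its difference of -0.44 ± 0.20 was not called (adjusted p = 0.125).

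Tfam had 12.6 and 12.4 FPKM in uninjured wild type and 9.08 and 10.3 FPKM after I/R, and fell by 0.34 ± 0.11 (adjusted p = 0.0467). Gabpa had 8.23 and 8.12 FPKM without and 8.05 and 8.53 FPKM after I/R. Its groups overlapped, with a difference of 0.02 and a 95% interval of ± 0.16 (adjusted p = 0.872).

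The calls of Esrra and Esrrb held under all 16 alternative settings. When the libraries were scaled to equal sums of FPKM, which shifts the median of all genes by 0.26 on the log2 scale, Ppargc1a (-0.24, adjusted p = 0.0685), Esrrg (-0.07) and Tfam (-0.06) were not called and Gabpa was called higher (0.28, adjusted p = 0.0411); the Tfam call was also lost with the replicate number as a block (adjusted p = 0.0624). The Esrrg call was lost without either uninjured wild type library or wild type I/R replicate 1 (adjusted p up to 0.148) and the Tfam call without any 1 library of wild type, wild type I/R or knockout I/R (up to 0.205), while Ppara and Ppargc1b were called lower without either knockout library (adjusted p of 0.0145 to 0.0399) or with only the wild type libraries (0.0150 and 0.0268).

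In whole-kidney RNA, fewer cells of a type and less RNA per cell cannot be told apart. Markers of tubule segments moved with the set. The summed level of 14 proximal tubule markers (leaving out Kap) was 5528 to 5982 FPKM in wild type without and 2906 to 3014 FPKM after I/R, and 11 of 15 with Kap fell. For the thick ascending limb the sum of 10 markers was 1705 to 2136 FPKM without and 1029 to 1196 FPKM after I/R, and 7 fell. The 10 markers of the distal convoluted and connecting tubule summed to 1509 to 1556 FPKM without and 383 to 400 FPKM after I/R, 9 being lower and 1 higher. The 12 genes of injured tubules went from 521 to 594 up to 8058 to 8200 FPKM, and all 12 rose. All 9 fibroblast markers and 7 of 8 tested macrophage markers rose as well, and their sums went from 29.2 to 44.5 up to 259 to 350 FPKM and from 64.8 to 108 up to 323 to 367 FPKM. None of the markers of these lists was at 0 in both libraries of a group, and their part in the results on the 8 genes was not tested.

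Among the other marker lists, the sum of 5 erythrocyte genes was 402 to 804 FPKM in wild type without and 65.1 to 76.7 FPKM after I/R. Called lower were 5 of 5 erythrocyte, 3 of 6 intercalated cell, 2 of 6 principal cell, 4 of 8 endothelial (1 higher) and 1 of 2 T cell genes tested, and 0 of 6 podocyte and 0 of 5 B cell genes. Of 6 adipocyte genes 1 passed the filter on low levels and of 6 muscle genes 0 did, and 1 muscle gene was at 0 in all libraries.

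In knockout kidneys, 3 of the 8 genes fell after I/R: Esrrb, Esrra and Tfam. Among all genes tested 11.7% were called lower and 8.95% higher. The median over the 8 genes was -0.18, beside -0.03 over all genes. Every I/R library lay below every uninjured library in 6 of the 8 genes, beside 35.7% of all genes.

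Esrrb had 9.25 and 6.27 FPKM without and 3.67 and 3.83 FPKM after I/R in knockout. The groups were apart, and Esrrb fell by 0.86 ± 0.19 (limma adjusted p = 0.0225), to 48.4% of its mean. Esrra had 97.9 and 93.8 FPKM without and 73.3 and 69.0 FPKM after I/R, and fell by 0.43 ± 0.09 (adjusted p = 0.0172). Tfam had 15.3 and 12.5 FPKM without and 10.6 and 9.97 FPKM after I/R, a fall of 0.39 ± 0.11 (adjusted p = 0.0444).

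The other genes were not called in knockout. Ppargc1a had 12.0 and 12.9 FPKM without and 11.6 and 10.9 FPKM after I/R. Its groups did not overlap, but the difference was -0.14 with a 95% interval of ± 0.17 (adjusted p = 0.214). Esrrg had 12.7 and 13.4 FPKM without and 12.0 and 10.2 FPKM after I/R, a difference of -0.22 ± 0.10 (adjusted p = 0.152). Ppargc1b (0.21 ± 0.24) and Ppara (0.29 ± 0.20) had overlapping libraries, and Gabpa differed by -0.12 ± 0.07.

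The call of Tfam was lost in 12 of the 16 alternatives, among them the replicate block (adjusted p = 0.0613), and those of Esrra and Esrrb in 4 each. Leaving out knockout replicate 1, or either knockout I/R library, left none of the 8 genes called, Ppara was called higher without knockout replicate 2 (0.61, adjusted p = 0.0181), and with equal sums of FPKM Esrrb alone was called while Ppargc1a (0.10), Esrrg (0.02) and Gabpa (0.11) changed sign. The 14 proximal tubule markers summed to 5635 to 6408 FPKM in knockout without and 4720 to 5014 FPKM after I/R, and 4 of 15 with Kap fell. The 12 injured tubule genes summed to 772 to 784 and 4839 to 5176 FPKM, and 11 rose.

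Without I/R, knockout and wild type did not differ by a called amount in any of the 8 genes. Of all 13304 genes tested 1 was called, 0.00752%. At an unadjusted p under 0.05, 1 of the 8 genes and 9.27% of all genes passed, and limma-voom on recovered reads called 0 of the 8. Ppara, the gene that passed unadjusted, had 19.5 and 21.3 FPKM in wild type and 9.36 and 15.2 FPKM in knockout (-0.72 ± 0.20, limma adjusted p = 0.431). Both knockout libraries were below wild type, and they differed widely from each other. Ppargc1b had 2.85 and 3.32 FPKM in wild type and 1.35 and 2.55 FPKM in knockout (-0.50 ± 0.24, adjusted p = 0.563), with the same knockout library, replicate 1, the lower. Without that library Ppara differed by -0.40. The remaining 6 genes differed by between -0.08 and 0.17 on the log2 scale.

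After I/R, Ppargc1a was higher in knockout than in wild type, and it was the 1 gene of the 8 called. Among all genes tested 2.79% were called higher and 3.22% lower. Ppargc1a had 8.59 and 8.71 FPKM in wild type and 11.6 and 10.9 FPKM in knockout after I/R. The replicates lay close together and the groups apart, with a difference of 0.34 ± 0.07 (limma adjusted p = 0.0404), and knockout stood at 130% of the wild type mean. Every knockout I/R library was above every wild type I/R library in 4 of the 8 genes, Ppargc1a and the 3 estrogen-related receptors, beside 29.7% of all genes.

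Esrra had 58.8 and 52.3 FPKM in wild type and 73.3 and 69.0 FPKM in knockout after I/R (0.35 ± 0.09, adjusted p = 0.0618). Esrrg had 8.34 and 9.35 against 12.0 and 10.2 FPKM (0.29 ± 0.10, adjusted p = 0.124), and Esrrb had 2.77 and 2.88 against 3.67 and 3.83 FPKM (0.31 ± 0.19, adjusted p = 0.372). None of these receptors was called, although their groups did not overlap. Ppargc1b (0.35 ± 0.24), Tfam (0.08 ± 0.11), Ppara (0.01 ± 0.20) and Gabpa (-0.04 ± 0.07) had overlapping libraries.

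The Ppargc1a call was lost in 11 of the 16 alternatives, with equal sums of FPKM (0.25, adjusted p = 0.142), the replicate block (adjusted p = 0.0678) and without either library of wild type, wild type I/R or knockout I/R (adjusted p up to 0.258), and it was kept in limma-voom on recovered reads. Esrra gained a call in limma-voom (adjusted p = 0.0314) and among genes of at least 5 FPKM (adjusted p = 0.0479). Limma-voom used the library sizes behind FPKM, so it kept the deposited scale between libraries and is no check of that scale. Segment markers moved the same way: 5 of 15 proximal tubule, 4 of 10 thick ascending limb and 8 of 10 distal convoluted and connecting tubule markers were higher in knockout after I/R, and 9 of 12 injured tubule genes were lower. Summed levels in knockout after I/R were 1506 to 1529 FPKM for the thick ascending limb and 1142 to 1284 FPKM for the distal list, and their part was not tested.

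**Figure D2:**
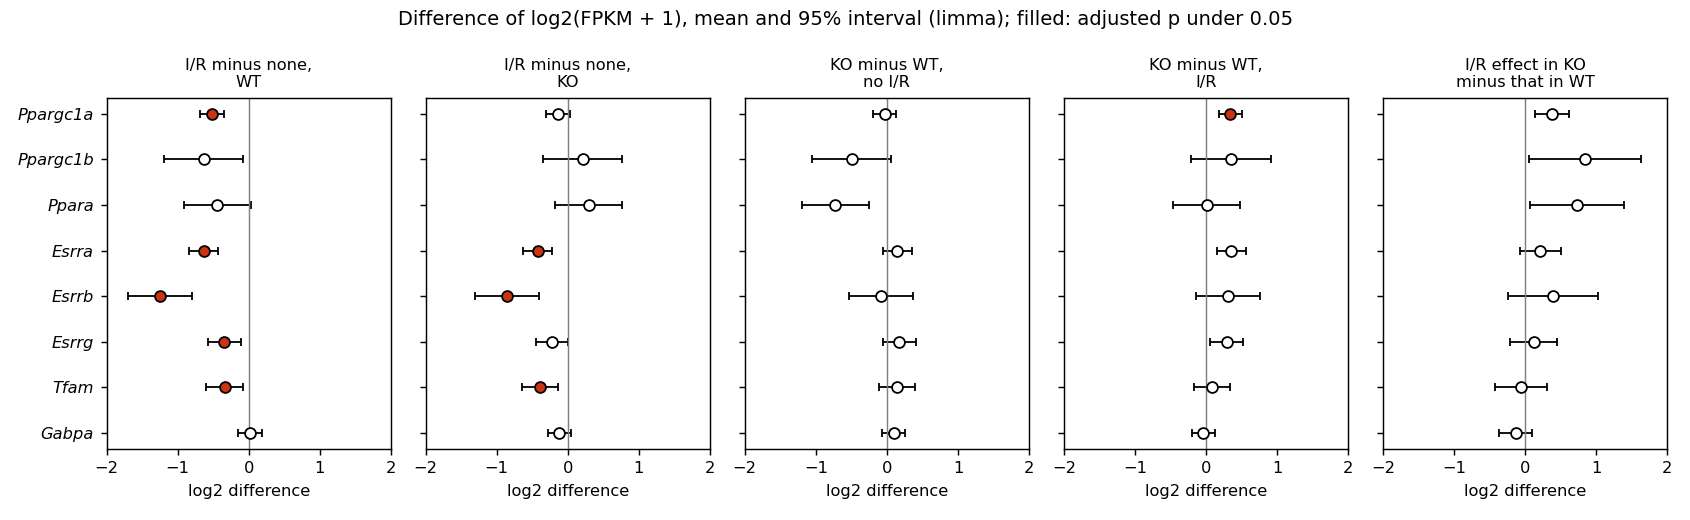
Log2 difference of each gene in the 5 comparisons, the interaction included (horizontal axes), as the limma estimate with its 95% interval; filled points have an adjusted p under 0.05. Esrrb and Esrra were called in both genotypes after I/R, and Ppargc1a was called between genotypes after I/R.

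The test of whether the response to I/R differed between genotypes called 0 of the 8 genes, beside 0.286% of all genes. At an unadjusted p under 0.05, 3 of the 8 genes and 17.3% of all genes passed, and limma-voom called 0 of the 8. For Ppargc1a the log2 response differed by 0.38 ± 0.10 (limma adjusted p = 0.140), for Ppara by 0.73 ± 0.28 (adjusted p = 0.246) and for Ppargc1b by 0.84 ± 0.33 (adjusted p = 0.262). Ppara was called (1.05, adjusted p = 0.0479) when knockout replicate 2 was left out, which leaves 1 uninjured knockout library whose spread is assumed to be that of the other groups. So the fall of Ppargc1a, called in wild type but not in knockout, was not shown to differ between the genotypes after adjustment.

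Within the estrogen-related receptor family, Esrrb had a lower share in every I/R library than in every uninjured one. Esrra held 79.6% to 84.1% of the summed FPKM of the 3 receptor genes in every library. Esrrb held 9.16% and 6.34% of that sum in uninjured wild type and 7.71% and 5.52% of it in uninjured knockout. After I/R the shares were 3.96% and 4.46% for wild type and 4.13% and 4.62% for knockout. The share of Esrrg was 10.3% to 11.8% without and 11.9% to 14.5% after I/R. The ratio of Esrrg to Esrrb was 1.23 to 2.14 without and 2.66 to 3.27 after I/R. These shares are within libraries, so a common scale of a library cancels, and they were not tested.

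**Figure D3:**
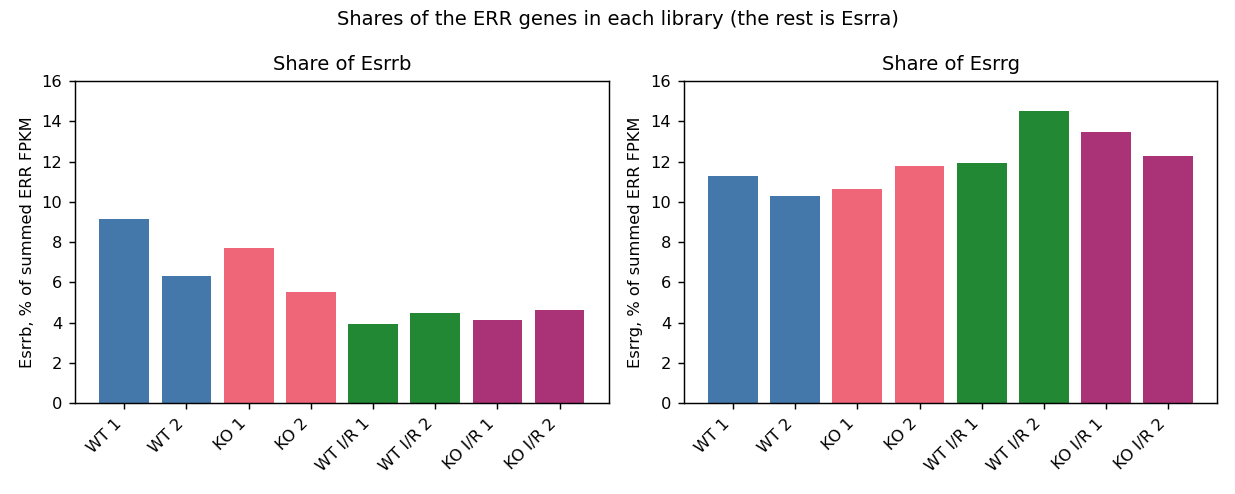
Share of Esrrb and of Esrrg in the summed FPKM of Esrra, Esrrb and Esrrg, in percent, with 1 bar per library. All 4 I/R libraries had an Esrrb share under 5%, and all 4 uninjured libraries one above 5%.

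The wider pathway was followed in 9 lists of genes. In wild type after I/R most fatty acid oxidation, oxidative phosphorylation and tricarboxylic acid cycle genes fell, beside 20.1% of all genes tested. Of 28 mitochondrial fatty acid oxidation genes tested 26 fell and 0 rose (median -0.67); examples were Acadm, the medium-chain acyl-CoA dehydrogenase, from 300.3 ± 0.2 to 107 ± 2 FPKM (SD, n = 2), and Acsm3, an acyl-CoA synthetase, from 128 ± 19 to 28.5 ± 6.5 FPKM. Of 45 nuclear-encoded oxidative phosphorylation subunits 43 fell (median -0.52), among them the complex II subunit gene Sdha, from 249 ± 10 to 144 ± 6 FPKM; with equal sums of FPKM 21 of the 45 were called (median -0.23), and 24 without wild type replicate 2 and 27 without wild type I/R replicate 1. Of 22 genes of the tricarboxylic acid cycle and pyruvate entry 21 fell (median -0.65), among them pyruvate carboxylase (Pcx), from 232 ± 13 to 120 ± 25 FPKM. Of 13 subunits encoded by mitochondrial DNA 8 fell (median -0.80), such as mt-Nd2 with a difference of -0.82 ± 0.14, but poly-T purification and near-identical nuclear copies make these levels uncertain. With equal sums 4 of the 13 were called (median -0.51), with no filter on low values 0, and without wild type replicate 1 it was 5.

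In the peroxisomal and microsomal list of 27 tested genes, 18 fell and 2 rose in wild type (median -0.62). Amacr, a racemase of branched-chain fatty acid breakdown, went from 165 ± 2 to 52.7 ± 4.0 FPKM. The 2 that rose, the fatty acid hydroxylase genes Cyp4a14 (1.87 ± 0.38) and Cyp4a12b (1.62 ± 0.19), belong to a family of near-identical genes and are uncertain. Of 22 other PPAR alpha target genes 9 fell and 3 rose (median -0.36). The lipid droplet gene Plin2 rose from 24.7 ± 2.6 to 64.8 ± 1.0 FPKM and Pdk4, which restrains pyruvate oxidation, from 4.99 ± 0.35 to 11.5 ± 2.2 FPKM, while the acyl-CoA thioesterase gene Acot12 fell by 1.17 ± 0.16. With equal sums 5 of these targets were called lower and 4 higher (median -0.10), and without wild type replicate 2 a total of 7 were called.

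The lists of regulators held genes of both directions in wild type. Of 28 partner receptors and factors 14 fell and 1 rose (median -0.33), including the clock repressor gene Nr1d1 (REV-ERB alpha), from 25.9 ± 1.1 to 10.9 ± 0.8 FPKM; with equal sums 5 were called lower and 5 higher (median -0.07), and without either wild type library or wild type I/R replicate 1 a total of 9 were called. Of 32 coregulators, kinases and deacetylases 7 fell and 6 rose (median 0.00), beside 20.1% and 17.4% of all genes; with equal sums 3 were called lower and 12 higher (median 0.26), and without any 1 library of wild type or wild type I/R 4 to 7 were called. Perm1, a cofactor induced by PGC-1 and the estrogen-related receptors in muscle, fell by 0.96 ± 0.13, the lipin gene Lpin1 by 0.95 ± 0.08, and the mitochondrial deacetylase gene Sirt3 by 0.93 ± 0.12. Of 27 genes of mitochondrial DNA maintenance and expression 12 fell (median -0.30), among them the protease gene Lonp1, from 52.0 ± 0.6 to 39.1 ± 2.2 FPKM; with equal sums of FPKM 1 of the 27 was called and the median was -0.02, and without wild type replicate 1 or 2, wild type I/R replicate 1 or either knockout I/R library it was 2 to 7.

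In knockout after I/R, 20 of 28 mitochondrial fatty acid oxidation genes (median -0.42), 33 of 45 oxidative phosphorylation subunits (-0.44), 18 of 22 tricarboxylic acid cycle genes (-0.45) and 2 of 13 mitochondrially encoded subunits (-0.40) fell, beside 11.7% of all genes, and 0 of each list rose. The counts changed when single libraries were left out: without knockout I/R replicate 2 they were 6, 0, 0 and 0, without knockout I/R replicate 1 they were 10, 3, 5 and 0, and without knockout replicate 1 the oxidative phosphorylation, cycle and mitochondrially encoded lists had 11, 10 and 0. With equal sums of FPKM they were 11, 4, 6 and 0. Acadm fell by 1.27 ± 0.12 and Mpc1, a subunit gene of the mitochondrial pyruvate carrier, by 0.72 ± 0.14. Peroxisomal and microsomal genes (10 of 27 lower, 2 higher, median -0.36) and PPAR alpha targets (5 of 22 lower, 1 higher, median -0.10) went both ways, and Cd36, a fatty acid transporter, differed by -0.87 ± 0.18 and was called. Of the partner factors 5 of 28 were lower and 0 higher, of mitochondrial DNA maintenance 6 of 27 were lower and 0 higher, and of coregulators 3 of 32 were lower and 2 higher. Without knockout I/R replicate 2, 4 peroxisomal and microsomal genes and 0 PPAR alpha targets, partner factors and maintenance genes were called; without knockout I/R replicate 1 it was 1 of each of the last 3 lists, and without knockout replicate 1 it was 2 partner factors and 1 maintenance gene. Of the coregulators, 1 or 2 were called without any 1 library other than knockout replicate 2, and 8 without that one; with equal sums 2 were lower and 10 higher (median 0.32). With equal sums of FPKM the knockout median of the PPAR alpha target list changed sign (0.15 in place of -0.10). So did those of the partner list (0.11 in place of -0.13) and the maintenance list (0.02 in place of -0.20). The medians of the mitochondrial fatty acid oxidation, nuclear-encoded respiratory and cycle lists were -0.17, -0.18 and -0.20, with fewer genes called as given above.

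Without I/R limma called 0 of the 244 tested genes of the 9 lists between genotypes, and limma-voom called 0. At an unadjusted p under 0.05, 18 of the 244 passed, beside 9.27% of all genes. In that comparison 45 of 45 oxidative phosphorylation subunits lay above 0 (median 0.18), as did 20 of 22 cycle genes (0.10). With equal sums of FPKM these medians were 0.11 and 0.03. The other lists had medians of -0.11 to 0.05, beside 0.02 over all genes. After I/R, knockout was higher in 7 of 28 mitochondrial fatty acid oxidation genes (median 0.27), 5 of 22 tricarboxylic acid cycle genes (0.33), 4 of 27 peroxisomal and microsomal genes (0.32, with 1 lower), 3 of 22 PPAR alpha targets (0.12, with 1 lower), 2 of 45 oxidative phosphorylation subunits (0.27) and 1 of 28 partner factors (0.13), beside 2.79% of all genes. These counts did not hold when any 1 of the 4 I/R libraries was left out: 0 fatty acid oxidation, cycle, oxidative phosphorylation and partner genes and at most 1 PPAR alpha target and 1 peroxisomal or microsomal gene were then called. Without either wild type library 4 fatty acid oxidation, 2 PPAR alpha target, 1 oxidative phosphorylation and 0 cycle and partner genes were called, and without either knockout library 13 oxidative phosphorylation, 10 cycle and 8 peroxisomal or microsomal genes were. With the replicate block 2 fatty acid oxidation, 0 cycle, 1 oxidative phosphorylation, 2 peroxisomal or microsomal and 0 partner genes and 0 PPAR alpha targets were called higher. The thiolase gene Acaa2 had 104 ± 15 FPKM in wild type and 163 ± 7 FPKM in knockout after I/R (0.64 ± 0.11, limma adjusted p = 0.0275). Sdha had 144 ± 6 and 198 ± 0.3 FPKM (0.45 ± 0.07, adjusted p = 0.0233), and the cytosolic malate dehydrogenase gene Mdh1 had 304 ± 24 and 424 ± 29 FPKM (0.48 ± 0.11, adjusted p = 0.0495). Plin2 was lower in knockout, at 34.5 ± 6.1 against 64.8 ± 1.0 FPKM (-0.90 ± 0.13, adjusted p = 0.0191), and Nr1d1 was higher (0.46 ± 0.09, adjusted p = 0.0353). In limma 0 coregulator, 0 mitochondrial DNA maintenance and 0 mitochondrially encoded genes were called, with 4, 0 and 6 at an unadjusted p under 0.05 and 2, 0 and 5 called by limma-voom. With equal sums of FPKM 4 of 28 fatty acid oxidation genes, 1 of 22 cycle genes, 2 of 27 peroxisomal or microsomal genes, 1 of 45 oxidative phosphorylation subunits, 0 of 22 PPAR alpha targets and 0 of 28 partner factors were called higher. In the interaction limma called 0 of the 244 and limma-voom called 5. At an unadjusted p under 0.05, 45 of the 244 passed, beside 17.3% of all genes. Interaction medians were 0.08 for the oxidative phosphorylation subunits, 0.22 for the cycle list and 0.29 for mitochondrial fatty acid oxidation.

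**Figure D4:**
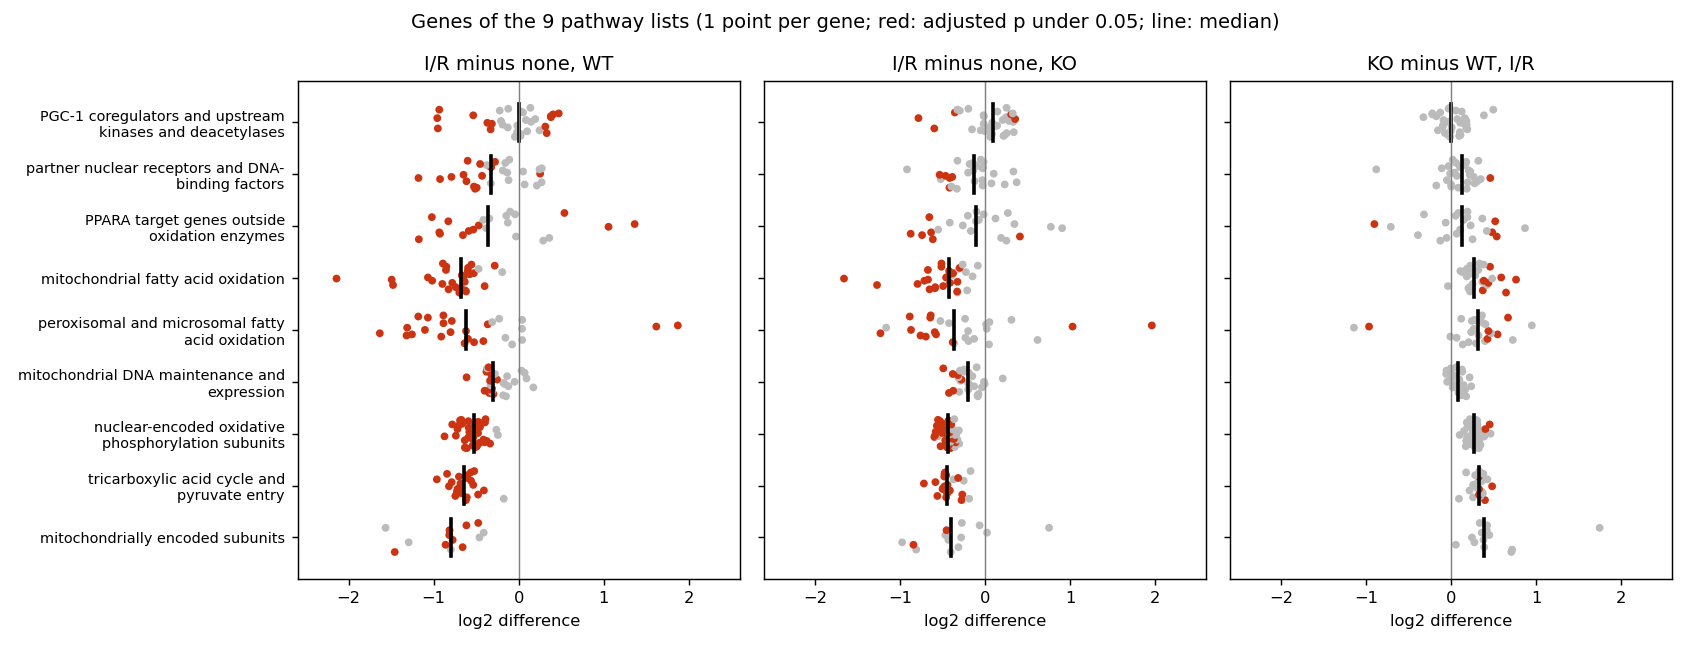
Log2 difference (horizontal axis) of every tested gene of the 9 pathway lists, 1 point per gene, in 3 comparisons; red points have an adjusted p under 0.05 and lines mark list medians. In wild type after I/R the mitochondrial fatty acid oxidation, nuclear-encoded respiratory and cycle lists had no point above 0.

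Over the 8 libraries, the levels of Ppargc1a and the estrogen-related receptors ran together. Pearson's r of log2(FPKM + 1) with Ppargc1a over the 8 libraries was 0.93 for Esrra, 0.89 for Esrrg and 0.83 for Esrrb, while it was 0.19 for Ppara. Ppara ran with Ppargc1b (0.81). Tfam ran with Esrrb (0.91). These values are a description over libraries that share the split into I/R and uninjured kidneys.

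The genes with the most similar pattern were found among 11161 protein-coding genes tested. For Ppargc1a they were Gpc4 (r = 0.994), Abat and Atp6v0a4 (both 0.992), and 837 genes had an r above 0.9. Esrra was closest to Pdzd3 (0.998), Fabp3 and Tecr, Esrrb to Mfn1 (0.995), Pcsk6 and Chac2, and Tfam to Chchd2 (0.995), Derl1 and Srp9, with 1284, 1078 and 1038 genes above 0.9. Esrrg was closest to Nprl3 (0.983), Hbp1 and Mvd, with 261 such genes. Ppargc1b (Dennd3, 0.955), Ppara (Veph1, 0.966) and Gabpa (Pank2, 0.932) had few, with 30, 22 and 4.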

How the data were processed

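Kidney RNA of 8 libraries was sequenced after poly-T purification, per the labels' protocols. The authors deposited FPKM per gene with coordinates and gene length, as 1 column per library. The tools featureCounts 1.5.0-p3 and DESeq2 1.20.0 and the build GRCm39 are named, without their roles, per the submitters' processing notes. For the aligner, filters, strand setting and formula of FPKM, nothing is given in the sources used here. Coordinates were checked against a GRCm38 annotation: of 54495 genes matched by identifier, 53585 had identical coordinates, so the positions printed are those of GRCm38.

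FPKM times length gave whole reads for 100% of values within 0.05 reads. A count of 3 reads, the floor, corresponds to 0.154 to 0.208 FPKM for a gene of 1 kb and covers counting error only. Replicates differed by more than sampling noise (chi-square of 4.92 to 20.4 per gene), so none were merged.

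The 13304 genes whose mean reached 1 FPKM, all 8 described genes among them, entered a test of log2(FPKM + 1) by limma (version 3.58.1, run in R 4.3.3; the package data.table was version 1.17.8). The fit had 4 group means, 4 residual degrees of freedom and a mean-variance trend. Tests were two-sided, with Benjamini-Hochberg adjustment over all tested genes and calls at 0.05. "Rose", "fell", "higher" and "lower" of single tested genes refer to calls, ± after a log2 difference is the standard error unless an interval is named, and folds on this scale understate low genes. Where a library was left out, the lone library of its group was assumed to vary like the other groups.

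The genes and the 9 pathway lists (261 entries; 1 was not found, and of the 2 rows named Atp5o the 1 not listed at 0 was used) and 15 marker lists were chosen with earlier results of these data known. Named list genes are among the 3 called genes with the largest difference per list and comparison, and similar genes are the top 3 by Pearson's r. Which of these are named was chosen after their values were seen. Whether the replicate numbers pair samples is not stated, and the main fit did not use them.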

Additional observations from a re-analysis of the deposited data

How the results depend on the processing

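Of 627 values of single genes under the 16 alternatives, 551 kept direction and call, 47 lost the call, 12 gained it and 17 changed sign. The cause was not tested in any of them. The number of the 8 genes called after I/R in wild type, 5, became 3 with no filter on low values and with equal sums of FPKM, and 3 to 7 when a library was left out. After I/R in knockout 3 became 1 with either of those settings, and 0 to 4 with a library left out. Between genotypes after I/R 1 became 0 with no filter, equal sums, the replicate block, only the libraries compared or no trend, 2 with at least 5 FPKM or limma-voom, and 0 to 1 with a library left out. The interaction gave 0 to 1 with a library left out, and the genotype comparison without I/R gave 0 in every setting.

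Values that changed sign were all uncalled. With equal sums they were Ppargc1a (0.10), Esrrg (0.015) and Gabpa (0.11) after I/R in knockout, and Ppara (-0.10) and Tfam (-0.017) between genotypes after I/R. With a library left out, Gabpa after I/R in wild type ranged from -0.021 to 0.054, Ppargc1b and Ppara in knockout from -0.089 to 0.51 and from -0.029 to 0.61, Ppargc1a and Esrrb between uninjured genotypes from -0.079 to 0.014 and from -0.33 to 0.17, Ppara and Gabpa between genotypes after I/R from -0.10 to 0.12 and from -0.075 to 0.00041, and the interaction of Tfam from -0.20 to 0.082.

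Over all genes, calls were 4992 after I/R in wild type (3181 without wild type replicate 2). In knockout there were 2748, or 1790 with no filter, 1556 with only those libraries and 583 to 3305 with a library left out. Between genotypes after I/R there were 800, or 305 with no filter, 461 with the block, 1503 in limma-voom and 8 to 1262 with a library left out. Without I/R there was 1 (0 to 10), and in the interaction 38 (14 with pseudocount 0.1, 96 with at least 5 FPKM, 61 with equal sums, 9 with the block, 175 in limma-voom, 0 to 206 with a library left out).

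Same-numbered libraries of different groups deviated together by r of -0.08 to 0.16, which cannot show whether they share an animal or batch. The block changed the calls of Tfam after I/R in both genotypes and of Ppargc1a between genotypes after I/R. It changed no other call of the 8 genes. With equal sums, 79.5% of calls after I/R in wild type were higher (46.5% as deposited), 84.4% in knockout (43.3%) and 20.1% between genotypes after I/R (46.4%). With 2 libraries a group, small differences in Ppargc1b, at 78 to 214 reads, were not detectable.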

Other observations

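Promoter windows of the pathway lists differed in the motifs they held, as a description with no test of genes picked after the matches were seen. The ETS motif was in 6 of 26 genes of mitochondrial DNA maintenance and expression with a window (23.1%), beside 4.31% of all genes: Mterf1a, Mterf1b, Polg, Tefm, Trmt10c and Twnk. Mterf1a and Mterf1b are near-identical genes. The NRF1-type motif was in 5 of 25 mitochondrial fatty acid oxidation genes, Acadm among them, and in 5 of 34 oxidative phosphorylation genes, beside 3.05% of all genes. The estrogen-related receptor element was in 2 of 34 oxidative phosphorylation genes, Atp5g3 and Sdhd, beside 0.466%.

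Pax2, the gene whose promoter drives Cre, had 9.39 and 6.52 FPKM in wild type, 13.2 and 10.7 in knockout, 8.08 and 7.55 in wild type after I/R and 11.1 and 11.8 in knockout after I/R, and was not called between genotypes without (adjusted p = 0.446) or after I/R (adjusted p = 0.119) in limma.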
